A study of Mus musculus with 8 samples.

Results

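The genes described here were 39 regulators of DNA and histone methylation, chosen by symbol as a fixed list of DNA methyltransferases, TET dioxygenases, histone lysine methyltransferases and histone lysine demethylases. All 39 were found among the 48432 genes listed, and each carried a valid estimate in all 8 libraries. The libraries were RNA-seq of liver from wild-type C57BL/6 mice after 30 weeks under 1 of 4 conditions, with 2 libraries in each. The groups were a light/dark cycle with filtered air (LD-FA), a light/dark cycle with fine particulate matter (LD-PM2.5), constant light with filtered air (LL-FA) and constant light with fine particulate matter (LL-PM2.5). PM2.5 is airborne particulate matter fine enough to reach the deep lung, and constant light removes the daily light signal that sets the body clock. The series title names chromatin dynamics as its theme, which is the question these genes bear on. The sources used here do not state sex, age at the start or hour of collection.

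Methyl groups on cytosines of CG pairs and on lysines of histone tails mark chromatin as active or silent. DNMT1, guided by UHRF1, copies DNA methylation onto new strands at replication, DNMT3A and DNMT3B add it to unmethylated sites, and the TET enzymes oxidise it. On histone H3, the MLL and SETD1 enzymes methylate lysine 4 at promoters and enhancers, PRC2 methylates lysine 27 at silenced genes, the SUV39H, SETDB1 and EHMT enzymes methylate lysine 9, and SETD2 and NSD1 methylate lysine 36. The KDM demethylases remove these marks. In the adult liver most hepatocytes rarely divide, so enzymes tied to replication are usually scarce there.

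The promoters of 4 genes are shown because the results turn on these genes: Ezh1 and Ezh2, the alternative catalytic subunits of PRC2 that lay far apart in level, and Kdm5b and Dnmt3b, whose levels were lower in all 4 PM2.5 libraries than in all 4 filtered-air libraries. Each runs 5′ to 3′ along the gene's strand from 250 bases before to 30 bases after the transcription start, taken from RefSeq on GRCm38.p6. Capitals mark matches, on either strand, to GCGTG, the core bound by the aryl hydrocarbon receptor, to TTTNGCGC, an E2F-type site, and to CACGTG, the E-box. Matches to these motifs may share bases.
Ezh1, chr11:101226434-101226713, minus strand: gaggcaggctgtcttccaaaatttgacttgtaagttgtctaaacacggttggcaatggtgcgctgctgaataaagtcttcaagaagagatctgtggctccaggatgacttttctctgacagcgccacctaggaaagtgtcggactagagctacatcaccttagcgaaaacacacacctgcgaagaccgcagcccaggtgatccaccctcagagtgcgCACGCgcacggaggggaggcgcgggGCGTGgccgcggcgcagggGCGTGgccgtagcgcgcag
Ezh2, chr6:47595001-47595280, minus strand: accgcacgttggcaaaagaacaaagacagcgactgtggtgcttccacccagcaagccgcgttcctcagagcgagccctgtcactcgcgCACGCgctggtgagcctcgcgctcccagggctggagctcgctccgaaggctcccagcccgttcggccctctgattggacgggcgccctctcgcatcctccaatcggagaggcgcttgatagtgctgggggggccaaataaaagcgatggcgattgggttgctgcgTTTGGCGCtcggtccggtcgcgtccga
Kdm5b, chr1:134559928-134560207, plus strand: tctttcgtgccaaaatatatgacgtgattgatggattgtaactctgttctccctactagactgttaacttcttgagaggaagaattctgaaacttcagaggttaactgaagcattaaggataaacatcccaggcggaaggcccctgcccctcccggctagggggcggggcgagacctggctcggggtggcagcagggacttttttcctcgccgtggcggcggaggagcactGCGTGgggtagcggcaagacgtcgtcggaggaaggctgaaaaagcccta
Dnmt3b, chr2:153649199-153649478, plus strand: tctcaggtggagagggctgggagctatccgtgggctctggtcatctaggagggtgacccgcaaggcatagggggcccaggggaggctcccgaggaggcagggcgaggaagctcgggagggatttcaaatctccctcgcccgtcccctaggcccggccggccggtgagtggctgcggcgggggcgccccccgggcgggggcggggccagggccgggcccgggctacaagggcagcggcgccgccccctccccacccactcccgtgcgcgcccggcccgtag
The Ezh1 window held 21 CG pairs, the Ezh2 window 30, the Kdm5b window 16 and the Dnmt3b window 26. Of the 39 genes, 30 had a promoter in the RefSeq table, with 43 starts in all. Their median was 26 CG pairs per window against 6 over all 32851 promoters of the same length. GCGTG was found in 22 of the 43 windows, at 19 genes with Kdm5b, Setd7, Ezh1 and Ezh2 among them, and in 30.8% of all promoters. The E2F-type letters were found in 3 of the 43 windows, at Dnmt1, Ezh2 and Uhrf1, and in 1.28% of all promoters. CACGTG was found in 4 of the 43, at Dnmt3a, Ehmt2 and Kdm4c, and in 6.79% of all promoters. A match describes the letters in the window and is not a measured binding site.

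Estimated fragments per library ran from 22214720 to 31819109. Hepatocyte markers were high in every library, with a summed level of 14938 to 20066 FPKM over 7 genes led by Apoa1. Markers of pancreatic acinar tissue, led by Cela2a, summed to 3433 FPKM in LD-FA replicate 1, to 336 in LL-PM2.5 replicate 2 and to 122 in LD-PM2.5 replicate 1, and to between 17.8 and 34.7 in the other 5 libraries. Markers of skeletal muscle, led by Acta1, summed to 262 and 29.6 FPKM in the LD-FA pair and to 502 in LL-FA replicate 1, and to at most 1.36 in the other 5. Adipocyte markers, led by Cfd, summed to 38.1 FPKM in LL-FA replicate 1 and to between 1.94 and 11.5 elsewhere. Neutrophil markers, led by S100a9, summed to 14.0 in LD-PM2.5 replicate 2 and to at most 6.87 elsewhere, and lymphocyte markers, led by Ighm, to 29.6 and 21.4 in the LD-FA pair and to at most 16.7 elsewhere. The part of these tissues and cells in the values below was not tested, beyond leaving out the libraries concerned. FPKM is fragments scaled to transcript length and depth, so FPKM levels may be compared between genes. Tests used edgeR's quasi-likelihood model on fragments, with log2 fold changes given with their standard error (SE), and adjusted p-values over the 11316 genes that reached 1 FPKM in 2 or more libraries. Of the 39 regulators, 32 entered that test. The labels do not tie replicate libraries to separate animals, and the p-values then measure only the spread between these samples, which may be technical. In bulk liver RNA, fewer cells of a type and less RNA per cell cannot be told apart.

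The regulators were expressed at low levels compared with the genes tested. Their median over the 8 libraries was 2.01 FPKM, or 2.35 FPKM for those that entered the test. All genes tested had a median of 6.43 FPKM, a background that leaves out genes below the filter. Ehmt2, which methylates lysine 9 of histone H3 together with its partner Ehmt1, had the highest level at 11.8 ± 0.965 FPKM (SD, n = 8). Its lowest library, at 10.2 FPKM, lay above every library of every other regulator. Next came Kdm2a, a lysine 36 demethylase, at 7.0 ± 1.41 FPKM, then the PRC2 subunits Eed at 6.50 ± 0.922 and Suz12 at 5.65 ± 1.12, and the lysine 9 and 36 demethylase Kdm4a at 5.60 ± 0.995 (SD, n = 8 for each). The libraries of these 4 overlapped, so their order is not resolved. Of the remaining genes, 27 lay between 1 and 5 FPKM and 7 below 1. Those 7 were Ezh2, Kmt2a, Tet2, Dnmt3b, Suv39h2, Uhrf1 and Tet1, and they are the 7 that did not enter the test.

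**Figure D1:**
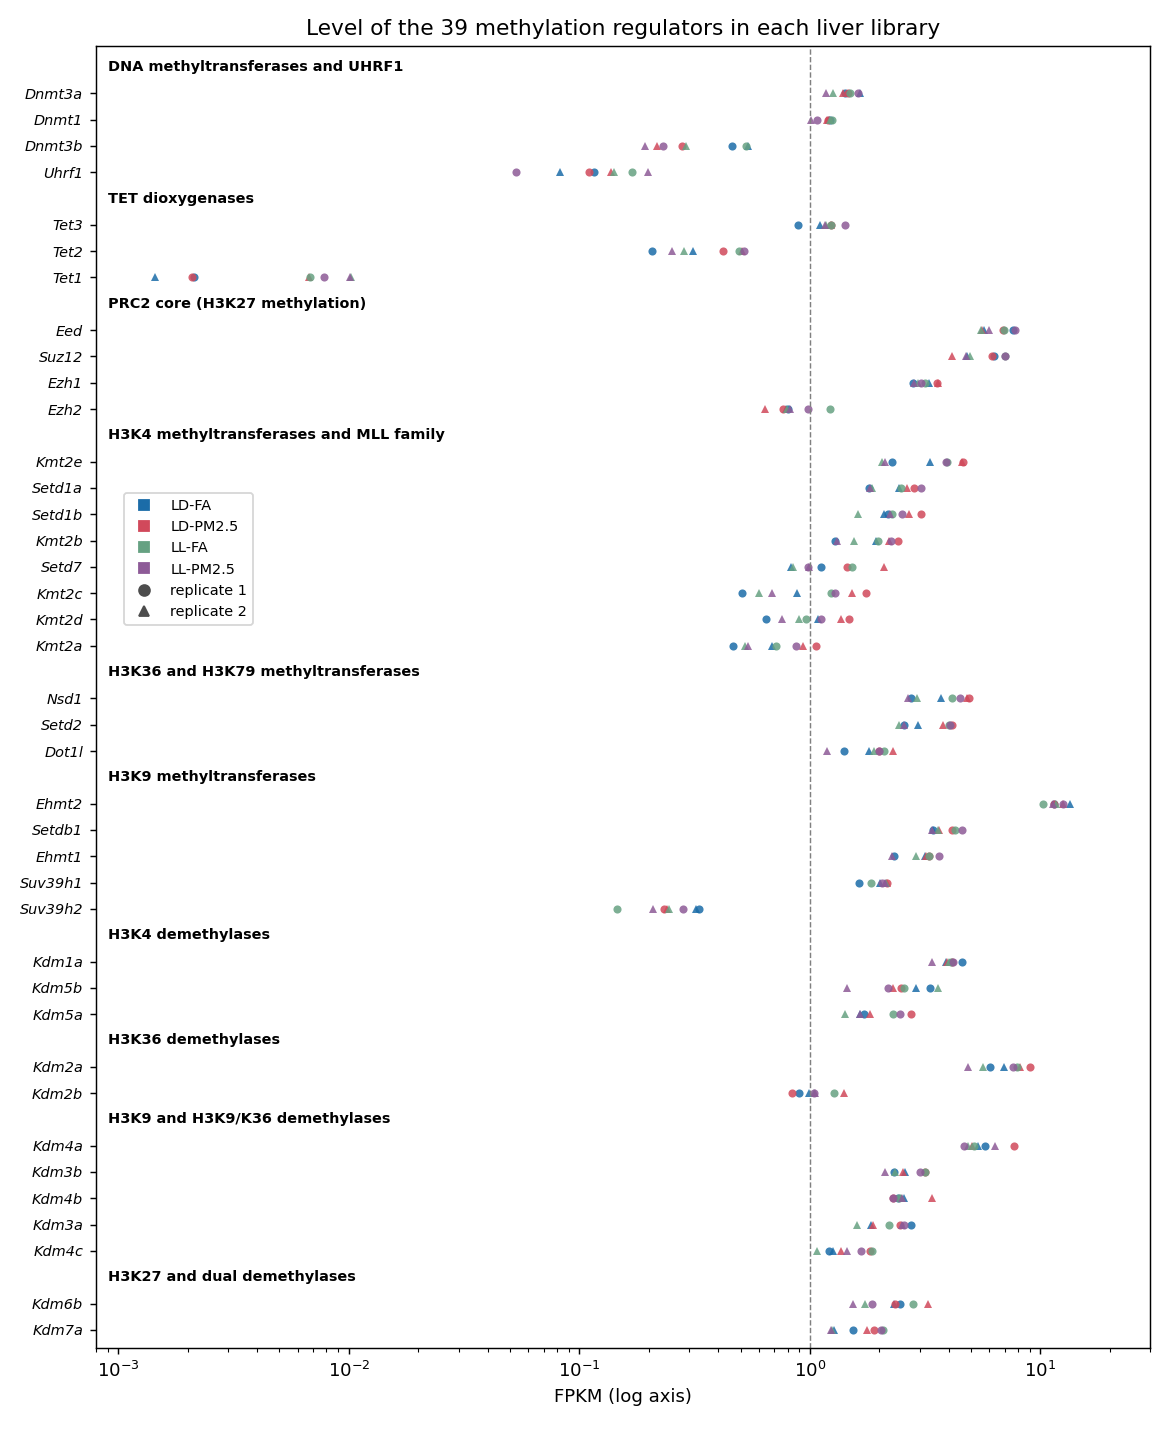
FPKM of the 39 regulators on a log axis, 1 row per gene, grouped by enzyme class and ordered by mean level within a class; colour gives the group, circles are replicate 1 and triangles replicate 2, and the dashed line is 1 FPKM. Ehmt2 lies at 10.2 to 13.4 FPKM, to the right of all others, while Tet1 lies near 0.01 FPKM or below.

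Ratios were taken for 6 chosen pairs of paralogs, and in each pair 1 gene had the higher level in all 8 libraries. Ezh1 exceeded Ezh2 in all 8 libraries, by 2.59 to 5.64 times with a median of 3.59. Suv39h1 exceeded Suv39h2, its paralog for lysine 9, by 4.92 to 12.6 times. Ehmt2 exceeded Ehmt1 by 3.11 to 4.96 times, Kmt2b exceeded Kmt2a by 2.27 to 2.95 times, Dnmt3a exceeded Dnmt3b by 2.84 to 6.99 times, and Tet3 exceeded Tet2 by 2.43 to 4.63 times. Outside these pairs, Kdm2a, at 4.83 FPKM or more, exceeded Kdm2b, at most 1.40, in all 8 libraries. Kdm4a, at 4.68 FPKM or more, likewise exceeded Kdm4b, at most 3.37, and Kdm4c, at most 1.86. Some other paralogs had similar mean levels. Setd1a stood at 2.36 and Setd1b at 2.33 FPKM, Kmt2c at 1.06 and Kmt2d at 1.04, and Kdm3a at 2.22 and Kdm3b at 2.65. Tet1 rested on 1 to 6 fragments per library, so its level cannot be ranked by condition at this depth.

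Among the DNA methylation enzymes, the maintenance methyltransferase Dnmt1 was the steadiest of the 32 tested regulators, with a coefficient of variation of 7.02% over the 8 libraries against a median of 19.0% for these 32 and 16.7% for all genes tested. Dnmt1 measured 1.22 and 1.21 FPKM in the LD-FA pair, 1.20 and 1.19 in the LD-PM2.5 pair, 1.24 and 1.22 in the LL-FA pair, and 1.07 and 1.01 in the LL-PM2.5 pair. The pair with both exposures was the lowest, and the 4 PM2.5 libraries lay below the 4 filtered-air libraries by FPKM but overlapped them by CPM (fragments scaled to library size with TMM factors, with no account of length). Its average PM2.5 effect was a log2 fold change of -0.10 ± 0.10 (SE), with an edgeR adjusted p = 0.756. The de novo methyltransferase Dnmt3a stood at 1.18 to 1.65 FPKM and had a PM2.5 average of -0.02 ± 0.09 on the log2 scale.

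Dnmt3b, the other de novo methyltransferase, measured 0.460 and 0.538 FPKM in the LD-FA pair, 0.278 and 0.217 in the LD-PM2.5 pair, 0.527 and 0.290 in the LL-FA pair, and 0.232 and 0.193 in the LL-PM2.5 pair. All 4 PM2.5 libraries lay below all 4 filtered-air libraries, at 0.230 ± 0.0359 against 0.454 ± 0.114 FPKM (SD, n = 4), and they did so by CPM as well. These levels came from 25 to 95 fragments per library, and the lower filtered-air value, LL-FA replicate 2, was close to the highest PM2.5 value. The gene (ENSMUSG00000027478, chr2:153649450-153687730, plus strand) was too low for the filter. An edgeR fit of 23030 genes without that filter gave -1.0 ± 0.27 (SE) for the PM2.5 average, with an adjusted p = 0.0180. That call was lost on leaving out any 1 of 6 of the 8 libraries, and kept without LD-FA replicate 1 or LL-FA replicate 2. In the fits that lost it the average ran from -1.09 without LD-PM2.5 replicate 1 to -0.74 without LL-FA replicate 1. DESeq2 gave an adjusted p = 0.223 for the same difference.

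Uhrf1, the partner of Dnmt1, ranged from 0.0531 to 0.198 FPKM, and both extremes were LL-PM2.5 libraries. Among the TET dioxygenases, Tet3 measured 0.888 and 1.11 FPKM in the LD-FA pair, 1.23 and 1.24 in the LD-PM2.5 pair, 1.24 and 1.17 in the LL-FA pair, and 1.42 and 1.17 in the LL-PM2.5 pair. The LD-FA pair was the lowest. The log2 fold change of both exposures against neither was 0.41 ± 0.15 (SE; edgeR unadjusted p = 0.0281, adjusted p = 0.702), and 0.25 without LD-FA replicate 1. Tet2 ranged from 0.207 FPKM in LD-FA replicate 1 to 0.519 in LL-PM2.5 replicate 1, while the other LL-PM2.5 library stood at 0.252.

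The PRC2 core showed small differences between conditions. Ezh1, the subunit typical of resting cells, measured 2.80 and 3.29 FPKM in the LD-FA pair, 3.57 and 3.59 in the LD-PM2.5 pair, 3.15 and 2.93 in the LL-FA pair, and 3.04 and 2.84 in the LL-PM2.5 pair. The LD-PM2.5 pair was highest, by 0.22 ± 0.14 (SE) on the log2 scale over LD-FA, with an edgeR adjusted p = 0.567. Ezh2, the subunit typical of dividing cells, measured 0.803 and 0.784 FPKM in the LD-FA pair, 0.766 and 0.636 in the LD-PM2.5 pair, 1.22 and 0.793 in the LL-FA pair, and 0.980 and 0.820 in the LL-PM2.5 pair. By CPM all 4 constant-light libraries lay above all 4 light/dark libraries, while by FPKM LL-FA replicate 2 fell among the light/dark values. The highest library, LL-FA replicate 1, is also the one with the highest muscle and adipocyte markers. The fit without filter gave 0.33 ± 0.21 (SE) for the average effect of light on Ezh2, with an adjusted p = 1.0. The scaffold Suz12 and the reader subunit Eed had PM2.5 averages of -0.09 ± 0.09 and 0.02 ± 0.09 and light averages of 0.13 ± 0.09 and 0.04 ± 0.09 on the log2 scale (SE).

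**Figure D2:**
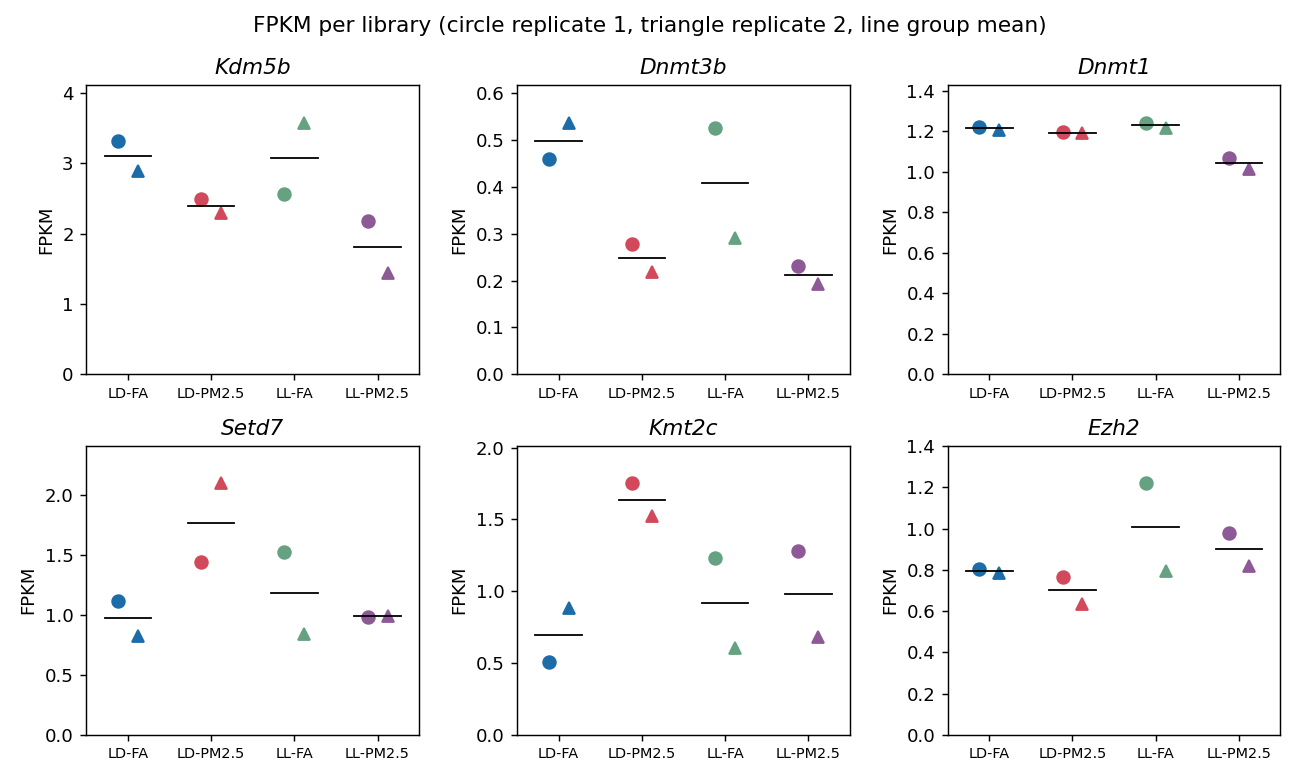
FPKM of 6 regulators in each library, with 1 panel per gene and an axis from 0; circles are replicate 1, triangles replicate 2 and the line the mean of the 2 libraries of a group. Kdm5b and Dnmt3b are lower in both PM2.5 groups, Dnmt1 is near 1.2 FPKM except in LL-PM2.5, Setd7 and Kmt2c have their highest group mean in LD-PM2.5, and Ezh2 is highest in LL-FA replicate 1.

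The largest coefficients of variation among the 32 tested regulators were in 3 genes of the lysine 4 methyltransferase and MLL family class. They were Kmt2c at 43.2%, Setd7 at 35.4% and Kmt2e at 32.1% over the 8 libraries. Kmt2c, which with Kmt2d methylates lysine 4 at enhancers, measured 0.508 and 0.880 FPKM in the LD-FA pair, 1.75 and 1.53 in the LD-PM2.5 pair, 1.23 and 0.602 in the LL-FA pair, and 1.28 and 0.682 in the LL-PM2.5 pair. Both LD-PM2.5 libraries lay above the other 6, yet the replicates within LL-FA and within LL-PM2.5 differed almost as much from each other. The PM2.5 difference in the light/dark cycle was 1.17 ± 0.40 on the log2 scale (SE), 2.25-fold, with an edgeR unadjusted p = 0.0195 and an adjusted p = 0.438. It was 0.76 without LD-FA replicate 1 and 1.76 without LD-FA replicate 2. Kmt2d measured 0.646 and 1.08 FPKM in the LD-FA pair and 1.47 and 1.36 in the LD-PM2.5 pair, a log2 difference of 0.74 ± 0.27 (SE; edgeR adjusted p = 0.438), which was 0.43 without LD-FA replicate 1 and 1.14 without LD-FA replicate 2. Kmt2a, the founding MLL gene, was below the filter and measured 0.462 and 0.686 FPKM in the LD-FA pair against 1.06 and 0.933 in the LD-PM2.5 pair. In constant light Kmt2c, Kmt2d and Kmt2a overlapped between the airs.

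Setd7, a lysine 4 monomethyltransferase that also methylates other proteins, measured 1.12 and 0.824 FPKM in the LD-FA pair, 1.44 and 2.09 in the LD-PM2.5 pair, 1.52 and 0.844 in the LL-FA pair, and 0.980 and 0.993 in the LL-PM2.5 pair. Its highest group mean was LD-PM2.5, though LL-FA replicate 1 lay between the libraries of that pair, and the LL-PM2.5 pair lay within the range of the filtered-air libraries. Its log2 difference for PM2.5 was 0.85 ± 0.30 in the light/dark cycle and -0.20 ± 0.30 in constant light (SE). Without LD-PM2.5 replicate 2, the library with the highest neutrophil markers, the first of these was 0.45. The test of the difference between these effects gave -1.05 ± 0.42 (SE), with an edgeR unadjusted p = 0.0393 and an adjusted p = 0.843. Constant light in PM2.5 gave -0.80 ± 0.30 for Setd7 (SE; edgeR adjusted p = 0.515). Without LD-PM2.5 replicate 2 these were -0.65 and -0.39, and without LL-FA replicate 1 the difference between the effects was -0.70. Setd1b, a catalytic subunit of the SETD1 complexes, had a PM2.5 average of 0.38 ± 0.16 (SE; edgeR unadjusted p = 0.0476, adjusted p = 0.491) that was 0.58 without LL-FA replicate 1 and 0.23 on leaving out replicate 2 of that group, and Setd1a, its paralog, one of 0.29 ± 0.20. Kmt2b, a methyltransferase close to Kmt2a, and Kmt2e, a more distant MLL relative, had PM2.5 averages of 0.28 ± 0.21 and 0.36 ± 0.23.

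Without the filter edgeR called Kmt2c (adjusted p = 0.000231), Setd7 (0.0171), Kmt2a (0.0258) and Kmt2d (0.0313) as higher with PM2.5 in the light/dark cycle, where 2.81% of the 23030 genes were called. Each of these calls was lost without LD-FA replicate 1, the library with the highest pancreatic markers and with muscle markers as well. The log2 difference then fell from 1.16 to 0.73 for Kmt2c, from 0.75 to 0.43 for Kmt2a and from 0.72 to 0.40 for Kmt2d. That of Setd7 rose from 0.84 to 0.95, so its call was not lost through a smaller difference. The calls of Kmt2c, Kmt2a and Kmt2d were also lost without either LD-PM2.5 library, and that of Setd7 without LD-FA replicate 2 or LD-PM2.5 replicate 2. DESeq2 called none of the 4, with adjusted p-values of 0.0585 for Kmt2c and from 0.187 to 0.243 for the others.

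The lysine 36 methyltransferases Setd2 and Nsd1 also had their highest group mean in LD-PM2.5. Nsd1 measured 2.75 and 3.72 FPKM in the LD-FA pair, 4.89 and 4.81 in the LD-PM2.5 pair, 4.14 and 2.91 in the LL-FA pair, and 4.47 and 2.66 in the LL-PM2.5 pair. Both LD-PM2.5 libraries were the highest, and the libraries within each constant-light group lay far apart. Its PM2.5 difference in the light/dark cycle was 0.53 ± 0.25 (SE; edgeR adjusted p = 0.485), that of Setd2 was 0.48 ± 0.22 and that of Dot1l, the lysine 79 methyltransferase, 0.44 ± 0.27. The lysine 9 enzymes had smaller values: Ehmt2 at -0.01 ± 0.12, Setdb1 at 0.16 ± 0.14, Ehmt1 at 0.21 ± 0.22 and Suv39h1 at 0.24 ± 0.20 (SE). Suv39h2 measured 0.332 and 0.319 FPKM in the LD-FA pair and between 0.146 and 0.282 in the other 6 libraries, from 19 to 45 fragments each, and the LD-FA pair also had the highest lymphocyte markers.

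Kdm5b, a demethylase of trimethylated lysine 4, stood apart among the demethylases. It measured 3.32 and 2.89 FPKM in the LD-FA pair, 2.49 and 2.29 in the LD-PM2.5 pair, 2.57 and 3.58 in the LL-FA pair, and 2.18 and 1.45 in the LL-PM2.5 pair. All 4 PM2.5 libraries lay below all 4 filtered-air libraries, at 2.10 ± 0.454 against 3.09 ± 0.451 FPKM (SD, n = 4), with the nearest libraries, LD-PM2.5 replicate 1 and LL-FA replicate 1, at 2.49 and 2.57. The exposure groups did not overlap by CPM either. The PM2.5 average was -0.60 ± 0.16 on the log2 scale (SE), 0.659 of the filtered-air level, with an edgeR unadjusted p = 0.00629 and an adjusted p = 0.396. The same gene was called by DESeq2 (-0.60, adjusted p = 0.0489) and by edgeR without the filter (adjusted p = 0.00349), in comparisons where these tests called 1.42% and 3.02% of all genes. Its difference was -0.45 ± 0.23 in the light/dark cycle and -0.75 ± 0.23 in constant light, and both exposures against neither gave -0.77 ± 0.23 (SE; edgeR adjusted p = 0.605). Without LL-FA replicate 2 the value in constant light was -0.38 and the PM2.5 average -0.41. The call without the filter was lost on leaving out LL-FA replicate 2, LL-PM2.5 replicate 2 or either LD-PM2.5 library. The average in that fit, -0.60 with all 8 libraries, was then -0.40 without LL-FA replicate 2 and -0.53 without LL-PM2.5 replicate 2. It hardly moved without LD-PM2.5 replicate 1 (-0.60) or LD-PM2.5 replicate 2 (-0.62). The gene (ENSMUSG00000042207, chr1:134560171-134635285, plus strand) shares no exon bases with another annotated gene.

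Its paralog Kdm5a, with the same substrate, had a PM2.5 average of 0.27 ± 0.13, opposite in sign to Kdm5b, and Kdm1a, which removes lower methylation states of lysine 4, one of -0.08 ± 0.09 (SE). The lysine 36 demethylases Kdm2a and Kdm2b had averages of 0.14 ± 0.13 and 0.03 ± 0.21. Of the lysine 9 demethylases, Kdm3a measured 2.20 and 1.60 FPKM in the LL-FA pair and 2.55 and 2.5 in the LL-PM2.5 pair, a log2 difference of 0.44 ± 0.18 (SE; edgeR unadjusted p = 0.0414, adjusted p = 0.989), and -0.11 ± 0.18 for LD-PM2.5 over LD-FA. Kdm3b, Kdm4a, Kdm4b and Kdm4c had PM2.5 averages of 0.05, 0.19, 0.09 and 0.22 on the log2 scale, each within 2 SE of 0. Kdm6b, the inducible lysine 27 demethylase, measured 2.35 and 3.27 FPKM in the LD-PM2.5 pair and 1.86 and 1.54 in the LL-PM2.5 pair, a log2 difference of -0.67 ± 0.28 for constant light in PM2.5 (SE; edgeR adjusted p = 0.536), which was -0.43 without LD-PM2.5 replicate 2, the library with the highest neutrophil markers. Kdm7a, which acts on lysines 9 and 27, ranged from 1.23 to 2.08 FPKM with no group set apart.

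Across the 32 tested regulators, edgeR at an adjusted p under 0.05 called none in any of the 8 comparisons. Over all 11316 genes it called 0.0177% for the PM2.5 average and 0% in each of the other 7. At an unadjusted p under 0.05 the counts were 3 of 32 in the light/dark cycle for PM2.5 (11% of all genes), 0 for constant light in filtered air (2.74%), 2 for PM2.5 in constant light (4.83%), 2 for constant light in PM2.5 (9.23%), 2 for both against neither (6.71%), 2 for the PM2.5 average (10%), 0 for the light average (5.66%) and 1 for the interaction (4.88%). Against these backgrounds the counts of 0 to 3 regulators do not stand apart. DESeq2 called 1 regulator, Kdm5b, for the PM2.5 average (1.42% of all genes) and none in the other comparisons. There it called 1.33% of all genes for LD-PM2.5 over LD-FA, 0.38% for constant light in filtered air, 0.513% for PM2.5 in constant light, 1.25% for constant light in PM2.5, 0.848% for both against neither, 0.813% for the light average and 0.292% for the interaction. Without the filter edgeR called 4 of 39 regulators for LD-PM2.5 over LD-FA (2.81% of all genes), 1 for PM2.5 in constant light (2.07%), 1 for constant light in PM2.5 (1.55%), 1 for both against neither (2.11%) and 3 for the PM2.5 average (3.02%). It called none for constant light in filtered air (0.873%), the light average (1.26%) or the interaction (1.04%).

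By FPKM, 3 of the 39 regulators, Kdm5b, Dnmt3b and Dnmt1, had PM2.5 and filtered-air libraries that did not overlap, all lower in PM2.5, and none was higher. Of all genes tested, 1.81% were lower and 1.59% higher without overlap, 3.4% in all, and of the genes without filter 1.41% were lower. For light, 1 regulator did not overlap, Tet1, higher in constant light with its 1 to 6 fragments, against 2.24% of all genes (0.68% higher and 1.56% lower). In the light/dark cycle 26 of 39 did not overlap between the 2 airs, 21 of them higher in PM2.5 and 5 lower, against 24.6% and 18.7% of all genes. In constant light 4 of 39 did not overlap between the airs (21.2% of all genes).

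**Figure D3:**
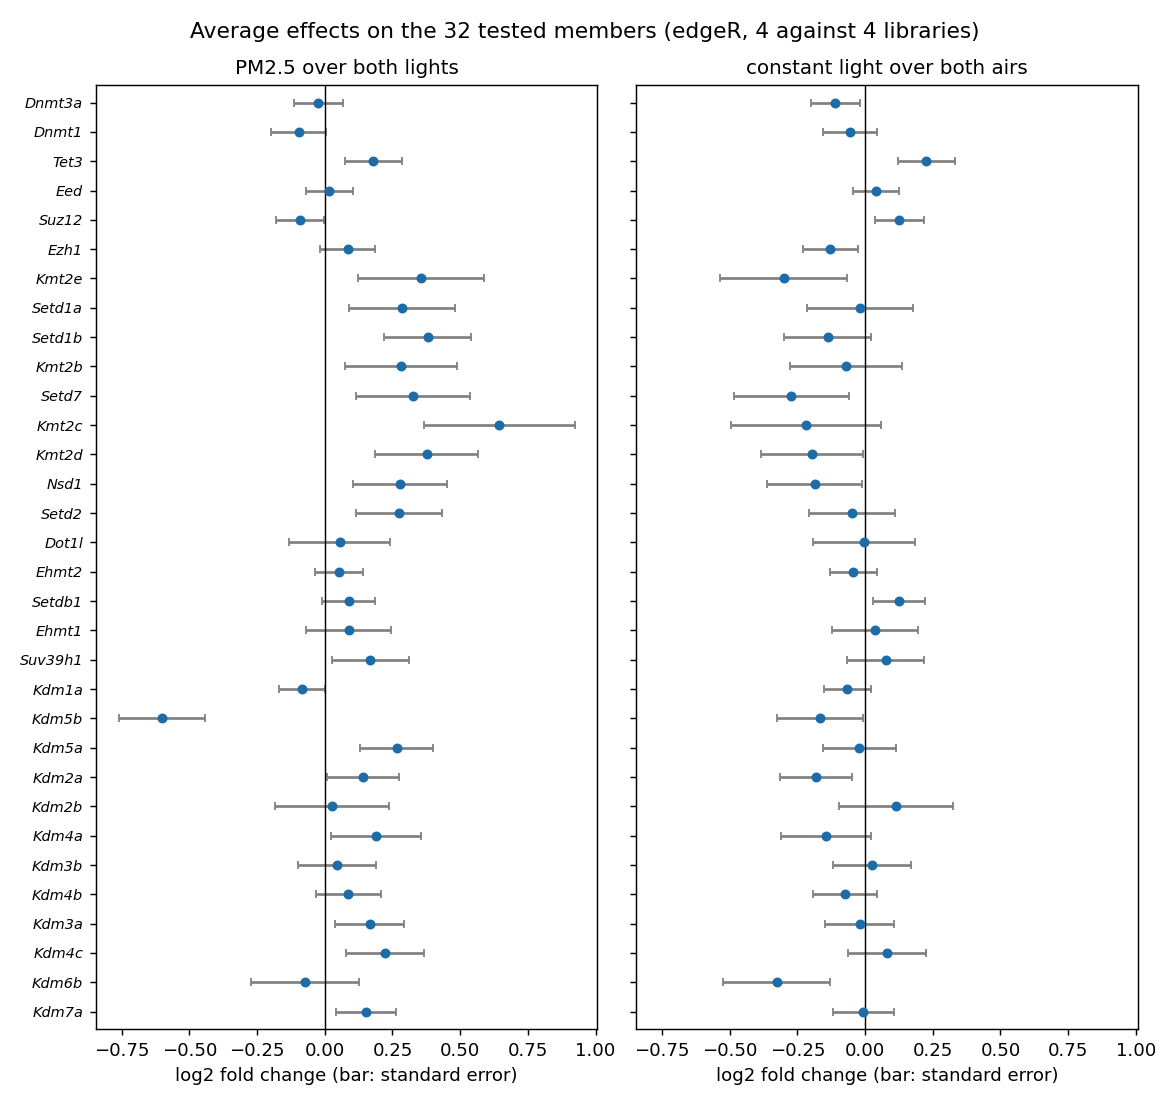
Log2 fold changes of the 32 tested regulators with bars of 1 standard error, for the PM2.5 average on the left and the constant-light average on the right, from edgeR. Kdm5b at -0.60 lies apart on the left, most H3K4 and H3K36 methyltransferases lie to the right of 0 for PM2.5, and no adjusted p is below 0.396.

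The direction of the fold changes was uneven. For the PM2.5 average 26 of 32 were positive with a median of 0.15, against 49.5% of all genes and a median of -0.0022. All 7 tested members of the lysine 4 methyltransferase and MLL family class were positive (median 0.36). So were all 3 of the lysine 36 and 79 class (0.28), all 4 tested lysine 9 methyltransferases (0.09) and all 5 KDM3 and KDM4 genes (0.17). In the light/dark cycle 25 of 32 were positive for PM2.5 (48.4% of all genes), with a median of 0.25, and in constant light 19 of 32 (50.7%), with a median of 0.02. Constant light in filtered air gave 24 of 32 positive (50.1%; median 0.07) and constant light in PM2.5 gave 8 (51.1%; median -0.16). Both against neither gave 25 positive (50.9%; median 0.08) and the interaction 4 (50.4%; median -0.26). For the constant-light average 9 of 32 were positive (51.3%), with a median of -0.05. The 7 tested members of the lysine 4 methyltransferase and MLL family class were all negative for it (median -0.20). The comparisons share libraries, so these counts are not independent of each other.

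These counts moved with transcript length. The regulators have long transcripts, with a median of 6571 bases for the longest coding transcript of the 32 tested against 2973 for all tested genes with a known length, and 14 of the 32 have 7000 bases or more. A long-minus-short index was taken per library as the median log2 CPM deviation of 751 other genes of at least 7000 bases less that of 3964 other genes under 2500 bases. The index was -0.34 and 0.02 in the LD-FA pair, 0.32 and 0.27 in the LD-PM2.5 pair, 0.14 and -0.30 in the LL-FA pair, and 0.12 and -0.24 in the LL-PM2.5 pair. It was low in 3 libraries, LD-FA replicate 1, LL-FA replicate 2 and LL-PM2.5 replicate 2. Of the 32 regulators, 26 had their lowest FPKM in 1 of these 3 libraries. The matching share over all genes tested was not taken, so this count cannot be set against a background.

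In the light/dark cycle both PM2.5 libraries had a higher index than both filtered-air libraries, so index and exposure cannot be told apart in that comparison. The 14 long regulators had a median PM2.5 log2 difference of 0.48 there, 12 of them positive, and the other 18 one of 0.21, 13 of them positive. All 783 tested genes of at least 7000 bases had a median of 0.32, with 86.1% positive. Across the 32 regulators the log2 difference and the log2 transcript length had a Pearson r of 0.58 and a Spearman rho of 0.59, and across 10200 genes the rho was 0.47. Genes in 1 set of libraries are not independent replicates, and these values describe the libraries. In constant light, where both airs held 1 library of high and 1 of low index, the long regulators had a median PM2.5 difference of 0.03 and the others one of -0.01.

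**Figure D4:**
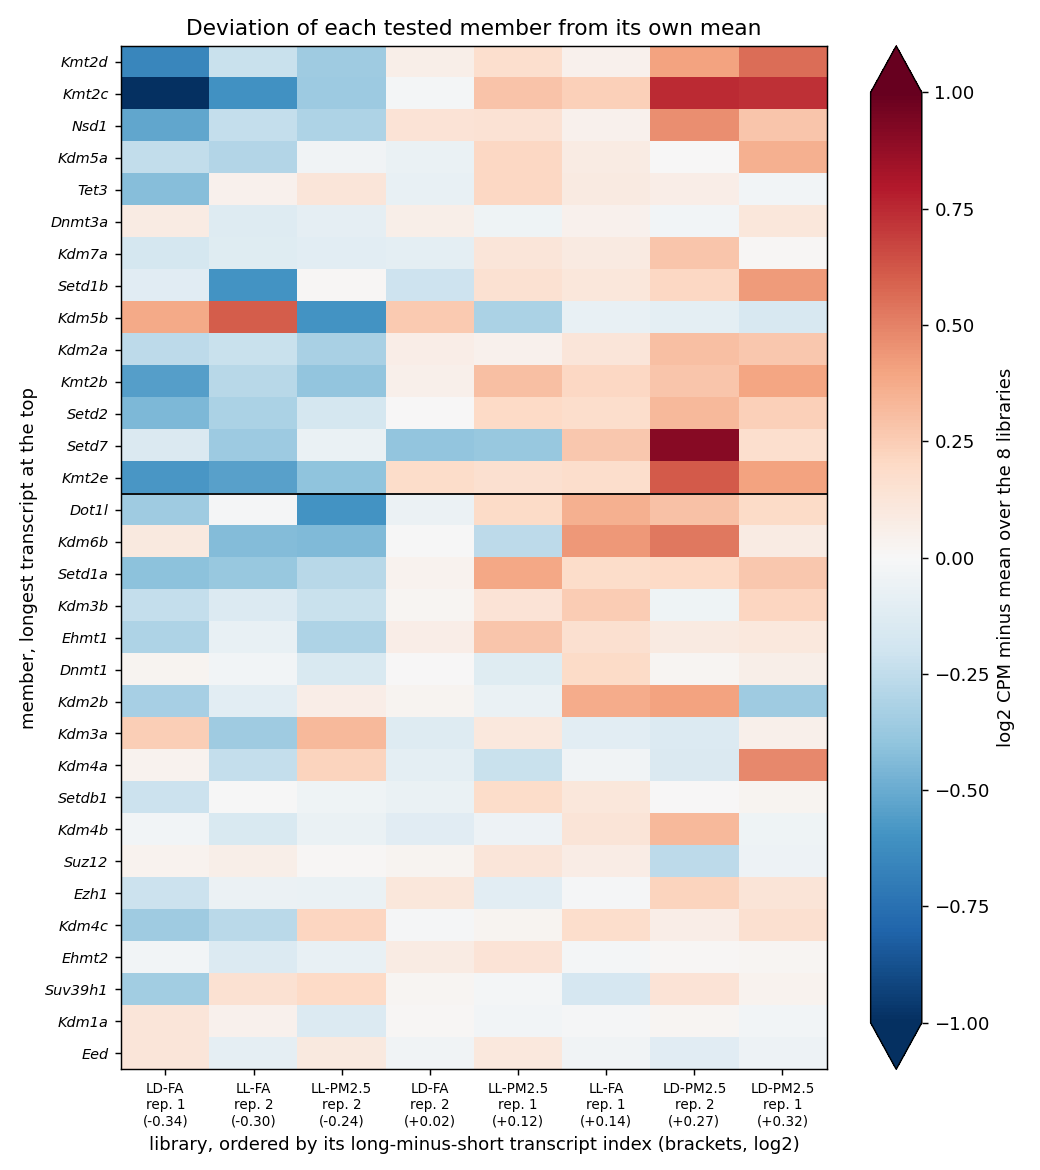
Log2 CPM of the 32 tested regulators minus each gene's mean over the 8 libraries (colour, log2), with the longest transcript at the top and the libraries ordered by their long-minus-short index; the line parts genes of 7000 bases or more from shorter ones. Most rows above the line go from blue in the 3 libraries of low index to red in both LD-PM2.5 libraries, while Kdm5b is red in LD-FA replicate 1 and LL-FA replicate 2.

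With the index added to the model as a covariate, a step chosen after the data were seen, the median PM2.5 difference of the 32 in the light/dark cycle went from 0.25 to -0.02, with 13 positive (51.6% of all genes). Kmt2c then had 0.29, Kmt2d 0.21 and Kmt2e -0.07, against 1.17, 0.74 and 0.66 without it. Setd7 kept 0.82 against 0.85. For the PM2.5 average 16 of 32 were positive with the covariate (51.6% of all genes), and Kdm5b had -0.45 (edgeR adjusted p = 0.534). Kdm5b, with a transcript of 8714 bases, thus had the opposite sign to most genes of its length.

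**Figure D5:**
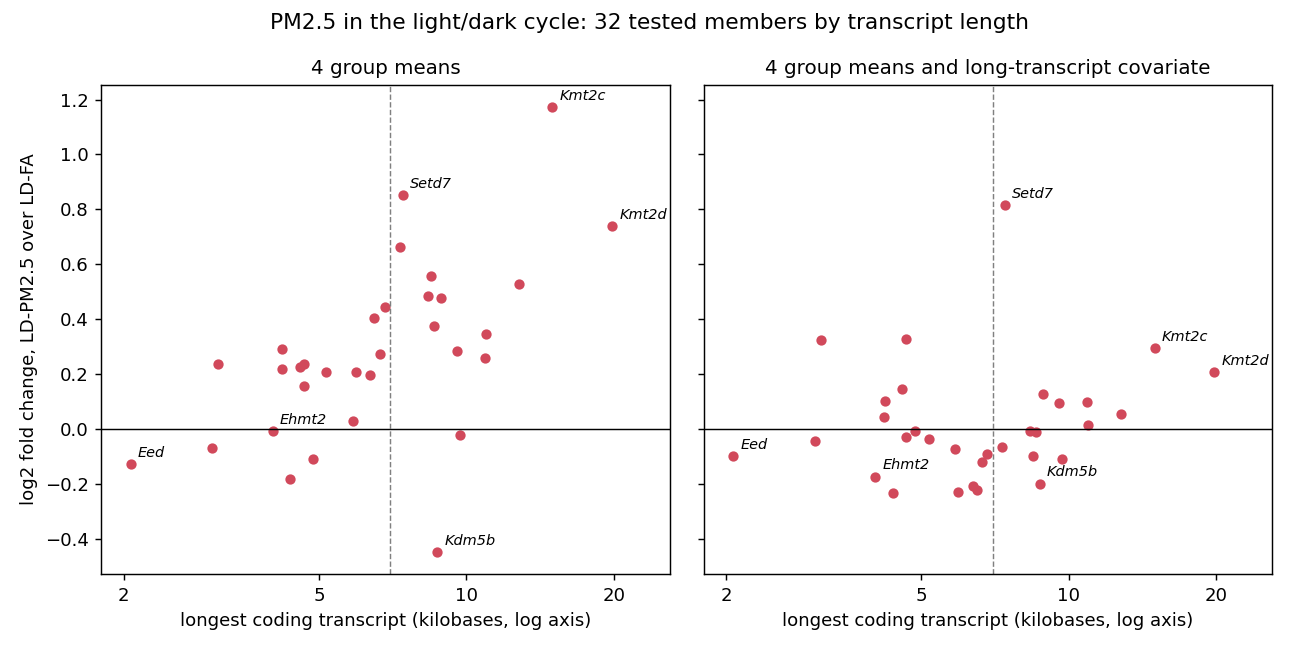
Log2 fold change of LD-PM2.5 over LD-FA for the 32 tested regulators against the length of the longest coding transcript (kilobases, log axis), from the model of 4 group means on the left and with the long-transcript covariate on the right; the dashed line is 7 kilobases. Kmt2c falls from 1.17 to 0.29 and Kmt2d from 0.74 to 0.21, while Setd7 goes from 0.85 to 0.82.

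The other genes of the pathway were 144 in 9 lists, and not all of them passed the filter. Those that entered the test showed no call by edgeR with the filter in any comparison. Their calls without the filter are not given here. Their counts of direction are not adjusted for transcript length. For the PM2.5 average 49.5% of all genes tested were positive, and 82.5% of those of at least 7000 bases. For the PM2.5 average 8 of 9 tested PRC2 accessory subunits were positive with a median of 0.21, led by Epop at 0.95 ± 0.28 (SE; edgeR adjusted p = 0.413) and Lcorl at 0.36 ± 0.11. Of 15 subunits of the COMPASS and MLL complexes, 12 were positive with a median of 0.12, led by Kansl1 at 0.30 ± 0.11 and Paxip1 at 0.37 ± 0.15. Of 17 other lysine methyltransferases 10 were positive (median 0.12). Among them Setd4 measured 0.815 and 0.807 FPKM in the LD-FA pair, 1.41 and 1.85 in the LD-PM2.5 pair, 1.02 and 1.26 in the LL-FA pair, and 1.48 and 2.00 in the LL-PM2.5 pair. All 4 PM2.5 libraries of Setd4 lay above all 4 filtered-air libraries, with a PM2.5 average of 0.81 ± 0.17 (SE; edgeR unadjusted p = 0.00151, adjusted p = 0.343). Nsd2, a lysine 36 methyltransferase, had one of 0.37 ± 0.11.

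Of 12 other lysine demethylases 9 were positive for the PM2.5 average (median 0.09), with Phf8 at 0.57 ± 0.15 and Kdm6a, a lysine 27 demethylase, at 0.40 ± 0.12 (SE), and all 12 were negative for the light average (median -0.14). The Y-linked demethylase genes Kdm5d and Uty were detected in all 8 libraries, at 0.795 to 1.59 and 1.71 to 3.39 FPKM, and Xist was at most 0.00142 FPKM. The 8 tested arginine methyltransferases had a PM2.5 median of 0.03, with Prmt1 at -0.04 ± 0.12 and Prmt3 at 0.19 ± 0.18. Of 12 readers and cofactors of DNA methylation 10 were positive (median 0.10), with the UHRF1 paralog Uhrf2 at 0.15 ± 0.08 and Zbtb38 at 0.13 ± 0.13. Of 16 histone methylation readers 12 were positive (median 0.12), with Spin1 at 0.37 ± 0.09 (edgeR adjusted p = 0.396) and Ing1 at 0.35 ± 0.17. Of the 8 tested replication genes 3 were positive and 5 negative (median -0.27), with Mcm7 at -0.33 ± 0.11 and Mcm2 at -0.40 ± 0.15 (SE). The proliferation marker Mki67 was between 0.0763 and 0.176 FPKM.

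The genes that make the methyl donor and its cosubstrates had the opposite balance, with 14 of 20 negative for the PM2.5 average (median -0.11). The part of transcript length in this contrast between lists was not tested. Bhmt, which remethylates homocysteine to methionine with betaine, measured 1462 and 1549 FPKM in the LD-FA pair, 971 and 636 in the LD-PM2.5 pair, 928 and 862 in the LL-FA pair, and 640 and 724 in the LL-PM2.5 pair. The LD-FA pair was the highest and did not overlap with any other group. Its PM2.5 difference was -0.94 ± 0.23 in the light/dark cycle, and both exposures against neither gave -1.11 ± 0.23 (SE; edgeR unadjusted p = 0.00164, adjusted p = 0.384). DESeq2 called Bhmt for LD-PM2.5 over LD-FA, for both against neither and for the PM2.5 average. It called Ahcyl2, chosen after its values were seen, for constant light in PM2.5. Mat1a, which makes the methyl donor itself in liver, was likewise chosen after its values were seen. It measured 542 and 618 FPKM in the LD-FA pair and 674 and 980 in the LD-PM2.5 pair. In constant light it measured 679 and 639 in the LL-FA pair and 950 and 893 in the LL-PM2.5 pair. Every PM2.5 library but LD-PM2.5 replicate 1 lay above all filtered-air libraries, a direction opposite to that of Bhmt.

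Some regulators share exon bases with a neighbour, and the sources used here do not say whether the counting used strand. Setdb1 shares 75 bases with Cers2, a gene on the opposite strand with up to 184 FPKM, Kmt2e shares 972 with Srpk2, Kdm2b 627 with Rnf34, Suv39h2 357 with Dclre1c and Kdm5a 251 with Ccdc77, all on opposite strands. Setd1a shares 3523 bases with Gm49388 on the same strand. Reads from such shared bases cannot be assigned with certainty.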

How the data were processed

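Liver RNA-seq was measured in 8 libraries. Per the submitters' processing notes, the authors used STAR, Cufflinks and Cuffdiff with mm10 as build, with versions, options and annotation not given in the sources used here. Their deposited table holds, per the file headers, an estimated count of fragments and an FPKM for each gene and library. Fragments were rounded for the tests, since 97.4% of the nonzero values were whole to within 0.01. The 47 genes with a status other than OK in any library, which hold 1.07% of the listed fragments, were left out. Symbols, gene positions and transcript lengths come from GENCODE vM21.

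edgeR 4.0.16 (TMM scaling, R 4.3.3) was fitted to all 8 libraries with 4 group means, leaving 4 residual degrees of freedom, on the 11316 genes that reached 1 FPKM in 2 or more libraries, with Benjamini-Hochberg adjustment over all of them and a threshold of 0.05. The SE was derived as the absolute log2 fold change divided by sqrt(F). The median SE over the tested genes was 0.19 between groups and 0.13 in the averages. The method was tested on simulated data. The alternatives were DESeq2 1.42.0, limma 3.58.1 on log2(FPKM + 1) or log2(FPKM + 0.1), median-of-ratios scaling, no filter, a filter at 5 FPKM, a replicate block, leaving out libraries, and, added after the data were seen, a long-transcript covariate and leaving out each library in the fit without filter. All 39 regulators are named. Of each pathway list the 2 tested genes of smallest unadjusted p over both averages are named, and of each marker list the gene of highest FPKM. One gene that this rule names is not reported here. The regulators and lists were chosen with earlier results of these data known. ATAC-seq was not analysed here.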

Additional observations from a re-analysis of the deposited data

How the results depend on the processing

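Groups of 2 libraries limit the precision, and 7 regulators were too low for the test. Without the filter, where edgeR's prior degrees of freedom were 76.3 against 3.46, the regulators called numbered 4 for LD-PM2.5 over LD-FA, 1 for PM2.5 in constant light, 1 for constant light in PM2.5, 1 for both against neither and 3 for the PM2.5 average (Dnmt3b, Kdm5b and Kmt2c), against 0 in each with it. DESeq2 called 1 for the PM2.5 average, and the other alternatives called none. With the filter, leaving out 1 library gave 0 calls among the regulators in every comparison. Without it, each of the 10 calls was lost on leaving out at least 1 library. Most fits that kept a call between 2 groups had left out a library of another group, which is not part of that comparison.

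The median log2 fold change of the regulators was less stable. A filter at 5 FPKM, which kept 5 of them, gave 0.0242 for LD-PM2.5 over LD-FA, -0.0811 for constant light in filtered air, 0.00277 for constant light in PM2.5 and 0.0929 for the interaction. The long-transcript covariate gave -0.0215 for LD-PM2.5 over LD-FA, -0.00134 for constant light in PM2.5 and -0.0284 for the interaction. Without replicate 1 of both filtered-air groups the median was -0.17 for constant light in filtered air and -0.00668 for the interaction. Leaving out 1 library gave 0.16 to 0.41 for LD-PM2.5 over LD-FA, the highest without LD-FA replicate 2, and -0.0732 to 0.25 for constant light in filtered air, the highest without LL-FA replicate 2. The cause of these shifts was not tested. No result changed its sign while called.

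Kdm5b kept a negative PM2.5 average in all 16 alternatives, from -0.76 to -0.41, with adjusted p-values from 0.00349 to 0.928. Same-numbered libraries of different groups correlated from -0.59 to 0.33 in their deviations from the group means. The labels do not tie them together, and whether some were processed together was not tested. With the replicate block 0 regulators were called, the median PM2.5 difference in the light/dark cycle was 0.26, and the calls of Dnmt3b and Kmt2a in the fit without filter were lost (adjusted p = 0.196 and 0.508).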
